A study of Rattus norvegicus with 9 samples.

Results

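The 10 genes described here make, conjugate, sense and carry bile acids in the liver: the cytochrome P450 enzymes Cyp7a1, Cyp8b1, Cyp27a1 and Cyp7b1, the conjugating enzymes Slc27a5 and Baat, the receptor gene Nr1h4 and its target Nr0b2, and the transporters Slc10a1 and Abcb11. They were chosen by name, with earlier results of these data known. Each is read from the 1 transcript cluster whose annotation carries that symbol alone, so 10 of 22093 genes of the array. A transcript cluster is the array's unit for a gene, and the array holds 68842 of them.

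The data are 9 arrays of total liver RNA from male Wistar rats, which were between 6 and 8 weeks old when obtained, with 3 RNA pools per group and RNA of 3 animals mixed in each pool. In the treated group, rats with type 2 diabetes (T2D) received 28 mg/kg Cγ (gamma conglutin, a lupin seed protein) and 20 mg/kg lupanine (a lupin alkaloid) by mouth each day for 7 days (pools 1 to 3). The T2D control group was made diabetic in the same way, by a high-fat diet and a low dose of streptozotocin, which kills pancreatic beta cells, and received saline by mouth without the combination (pools 4 to 6). The healthy group had neither the diet nor streptozotocin and also received saline (pools 7 to 9). Liver of healthy rats was lysed in Buffer RLT and liver of both T2D groups in Trizol, so lysis reagent, diet and streptozotocin cannot be told apart from diabetes in any comparison with healthy rats. The methods call the arrays of a group both biological and technical replicates, and give 9 animals per group. If they read shared RNA, the p-values below measure only the spread between arrays.

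Bile acids are made from cholesterol in hepatocytes. In the classic route Cyp7a1 sets the rate and Cyp8b1 decides how much cholic acid is formed. An alternative route starts with Cyp27a1 and continues with Cyp7b1. Slc27a5 and Baat then join bile acids to taurine or glycine, Abcb11 pumps them into the canaliculus, and Slc10a1 takes them back up from portal blood. The farnesoid X receptor FXR, encoded by Nr1h4, binds bile acids and switches on Nr0b2 (SHP), a repressor of Cyp7a1, while in the ileum it switches on the hormone Fgf15, which signals to the liver.

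All values are log2 signals, so a difference of 1 is 2-fold. Signals were tested with limma over all 9 arrays and 68842 clusters, with p-values adjusted by the Benjamini-Hochberg method. "Rose" and "fell" are used only where the adjusted p was under 0.05. The 3 comparisons share arrays and are therefore not independent of each other. Array medians lay between 3.06 and 3.27. The mean of 23 background probes was 2.89 in treated, 2.82 in T2D control and 3.52 in healthy pools, with the highest value, 3.72, in healthy pool 8. limma's array weights were lowest for healthy pool 8 (0.18) and healthy pool 9 (0.25), so values without these pools are given where they matter. Each member had a mean signal over the 9 arrays of at least 5.

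In T2D control liver, 2 members rose against healthy liver (Cyp7a1 and Nr0b2), 4 fell (Cyp8b1, Slc10a1, Baat and Slc27a5) and 4 were not called (Cyp27a1, Cyp7b1, Nr1h4 and Abcb11). The calls thus ran in opposite directions within the synthesis enzymes, and they took in both conjugating enzymes. In all, 35% of clusters were called in this comparison (12.4% rose and 22.6% fell), and 55.7% of the 8572 genes of 1 symbol with a mean signal of at least 5, so 6 calls among 10 members is close to the share of genes of that brightness. The median difference over the members was 0.04. It was -0.12 over all clusters and 0.03 over the genes of that brightness, so the members' median was close to theirs. In treated against T2D control liver, 0 of 10 members were called, where 0.0668% of clusters were, and 2 members (Cyp7a1 and Nr0b2, both lower) had an unadjusted p under 0.05, where 5.13% of clusters and 7.28% of the brighter genes did and 3.21% of clusters did with a lower signal. Of the brighter genes, 0.0117% were called. In treated against healthy liver, Cyp7a1 rose and the same 4 members fell, where 34.3% of clusters were called (11.1% rose and 23.1% fell) and 54.1% of the brighter genes.

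**Figure D1:**
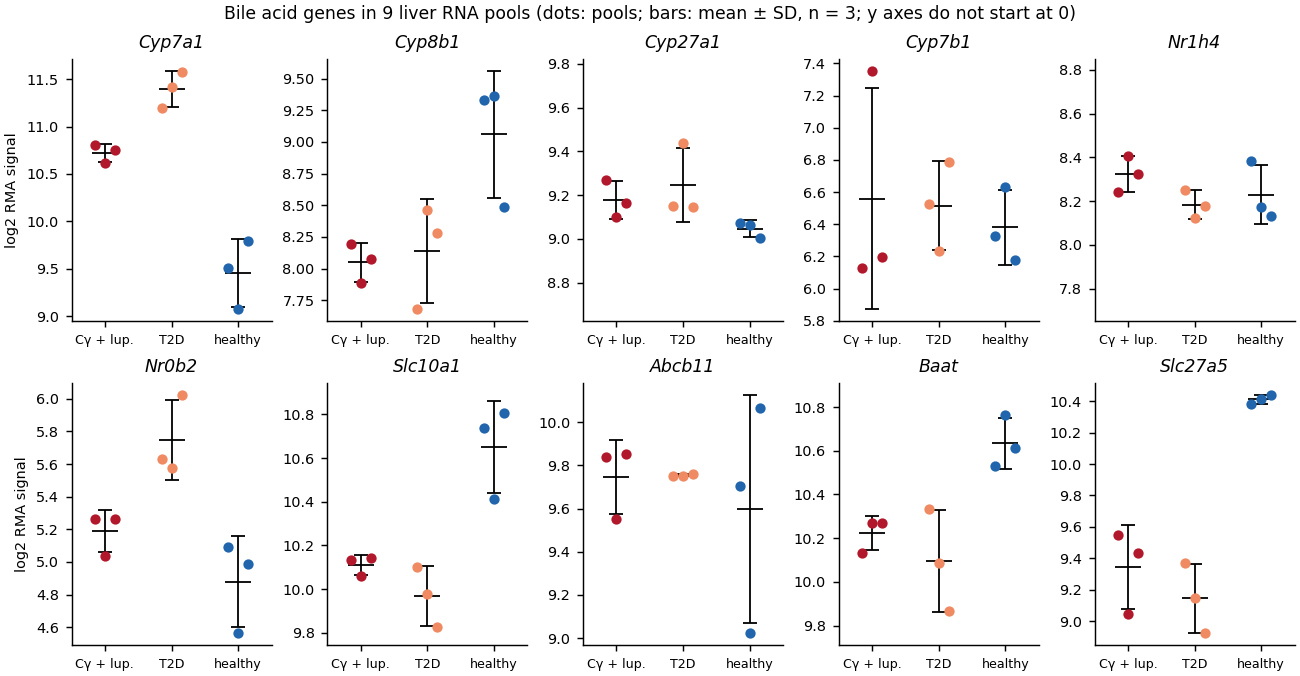
Log2 RMA signal (y axis, a separate scale for each gene that does not start at 0) of the 10 members in each pool of Cγ + lupanine treated T2D, T2D control and healthy liver (x axis), with points for pools and bars for mean ± SD, n = 3. Treated pools of Cyp7a1 lie between the other groups, from 10.61 to 10.81, while Slc27a5 in healthy pools stays between 10.39 and 10.44, above the pools of both T2D groups.

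Cyp7a1, the rate-limiting enzyme of the classic route, had log2 signals of 10.81, 10.61 and 10.75 in treated pools, 11.19, 11.42 and 11.57 in T2D control pools, and 9.50, 9.07 and 9.79 in healthy pools. The 3 groups did not overlap: T2D control pools were highest, healthy pools lowest, and treated pools lay between them. Cyp7a1 rose by 1.94 ± 0.17 (SE, 3.84-fold) in T2D control against healthy liver, with an adjusted p of 0.000198. It was the largest difference among the members in this comparison with the values as deposited. Without healthy pool 8 the difference was 1.75, without healthy pool 9 it was 2.11, and after quantile normalization it was 1.57. In treated liver it remained 1.27 ± 0.17 (SE, 2.41-fold) above healthy liver, with an adjusted p of 0.00131. Against T2D control liver the treated difference was -0.67 with a 95% interval of -1.07 to -0.28. Its p was 0.00415 before and 0.41 after adjustment over all clusters. With array weights, an alternative that gives noisier arrays less influence, that difference was -0.70 with an adjusted p of 0.0267, the only setting tried that called it.

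Cyp8b1, the sterol 12-alpha-hydroxylase that directs synthesis towards cholic acid, moved the other way. Its signals were 8.19, 7.89 and 8.07 in treated pools, 7.68, 8.46 and 8.28 in T2D control pools, and 9.33, 9.37 and 8.48 in healthy pools. Pools of both T2D groups lay below all healthy pools, but healthy pool 9 was only just above T2D control pool 5. Cyp8b1 fell by 0.92 ± 0.27 (SE) in T2D control against healthy liver, with an adjusted p of 0.0296, and by 1.01 ± 0.27 (SE) in treated against healthy liver, with an adjusted p of 0.0214. Both calls depended on single pools. The T2D control call was lost without T2D control pool 4 (adjusted p 0.0905) or 6 (0.0587), without healthy pool 7 (0.0902) or 8 (0.0984), and with only these 2 groups in the fit (0.0775). Without healthy pool 9 the T2D control difference was larger, at -1.21 (adjusted p 0.00395). The treated call was lost without treated pool 2 (adjusted p 0.0746) or 3 (0.0612), or healthy pool 7 (0.0673) or 8 (0.0725). Treated and T2D control pools overlapped, with a difference of -0.09 and a 95% interval of -0.70 to 0.52.

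Promoters are shown for the 4 called members with the largest differences among those that have an entry in the RefSeq table of assembly GRCr8, each from 250 bases before to 50 bases after the gene's start. Of the 10 members, 6 matched an entry (Cyp8b1, Cyp27a1, Nr0b2, Slc10a1, Baat and Slc27a5). Capitals mark motif matches described after the sequences. The Cyp8b1 promoter (chr8:130457543-130457842, minus strand), the Slc10a1 promoter (chr6:106357895-106358194, minus strand) and the Slc27a5 promoter (chr1:82699286-82699585, minus strand) belong to members that fell in T2D control liver, and the Nr0b2 promoter (chr5:151062910-151063209, plus strand) to one that rose.
Cyp8b1: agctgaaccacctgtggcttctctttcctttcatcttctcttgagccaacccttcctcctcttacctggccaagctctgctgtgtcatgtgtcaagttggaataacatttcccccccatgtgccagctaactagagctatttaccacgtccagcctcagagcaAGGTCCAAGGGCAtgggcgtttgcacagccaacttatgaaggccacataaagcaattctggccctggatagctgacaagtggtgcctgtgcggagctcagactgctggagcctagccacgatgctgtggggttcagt
Slc10a1: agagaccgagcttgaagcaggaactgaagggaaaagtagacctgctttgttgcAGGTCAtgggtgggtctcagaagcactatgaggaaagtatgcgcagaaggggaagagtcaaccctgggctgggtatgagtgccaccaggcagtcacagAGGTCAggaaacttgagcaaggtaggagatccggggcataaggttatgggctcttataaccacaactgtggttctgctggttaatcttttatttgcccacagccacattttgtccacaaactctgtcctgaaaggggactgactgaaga
Slc27a5: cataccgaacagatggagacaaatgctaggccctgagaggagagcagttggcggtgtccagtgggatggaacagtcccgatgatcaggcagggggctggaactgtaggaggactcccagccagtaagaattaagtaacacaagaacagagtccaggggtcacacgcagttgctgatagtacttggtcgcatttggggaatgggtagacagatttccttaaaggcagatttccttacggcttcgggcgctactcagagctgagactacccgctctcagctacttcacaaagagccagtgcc
Nr0b2: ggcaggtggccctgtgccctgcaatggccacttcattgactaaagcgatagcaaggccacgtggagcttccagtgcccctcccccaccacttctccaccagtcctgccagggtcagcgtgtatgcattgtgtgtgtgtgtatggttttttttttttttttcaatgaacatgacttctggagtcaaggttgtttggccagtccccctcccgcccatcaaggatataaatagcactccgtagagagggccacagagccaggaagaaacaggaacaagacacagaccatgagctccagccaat

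The motifs were searched on both strands of the 6 member promoters and of 33469 promoters of the table. The FXR inverted repeat (AGGTCA, any base, TGACCT, with up to 2 mismatches) was found in 1.51% of all promoters and in 0 of the 6. The direct repeat bound by HNF4 (AGGTCA, any base, AGGTCA, with up to 2 mismatches) was found in 3.77% of promoters and in 1 of the 6, that of Cyp8b1, at positions -87 to -75 from the start, in capitals above. The exact nuclear receptor half-site AGGTCA, which is part of both repeats, was in 16.2% of promoters and in 2 of the 6, those of Cyp27a1 and Slc10a1. The Slc10a1 promoter holds it at -197 to -192 and at -99 to -94. The LRH-1 site (TCAAG followed directly by GTCA, so that it contains the half-site) was found with up to 1 mismatch in 7.29% of promoters and in 1 of the 6, that of Cyp27a1, where it overlaps 1 of its half-sites. The HNF1 site (GTTAAT, any base, ATTAAC, with up to 2 mismatches) was in 1.19% of promoters and in 0 of the 6. These are matches of letters in this window only, and binding was not measured.

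The entry enzymes of the alternative route were not called in any comparison. Cyp27a1, the mitochondrial sterol hydroxylase, had signals of 9.27, 9.10 and 9.16 in treated pools, 9.15, 9.44 and 9.15 in T2D control pools, and 9.07, 9.06 and 9.00 in healthy pools. All pools of both T2D groups lay above the healthy ones by small amounts. The T2D control difference from healthy liver was 0.20 (95% interval -0.01 to 0.40, adjusted p 0.114), and the treated difference was 0.13 (-0.07 to 0.33). Its direction depended on scaling: the T2D control difference was -0.22 and not called after quantile normalization, and 0.32 with an adjusted p of 0.0369 after centring each array on its median. Treated and T2D control liver differed by -0.07 (-0.27 to 0.14).

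Cyp7b1, the oxysterol 7-alpha-hydroxylase that acts after Cyp27a1, had signals of 6.13, 7.35 and 6.20 in treated pools, 6.53, 6.23 and 6.79 in T2D control pools, and 6.33, 6.64 and 6.18 in healthy pools. Treated pool 2 stood above all other pools, and the 3 groups overlapped. The differences were 0.13 for T2D control against healthy liver (95% interval -0.58 to 0.85), 0.04 for treated against T2D control (-0.67 to 0.76) and 0.18 for treated against healthy (-0.54 to 0.89). Treated pool 2 widened all 3 intervals, since the groups share 1 estimate of the spread. Without it the SE of the T2D control difference was 0.16 in place of 0.31, and the treated differences were -0.35 from T2D control and -0.22 from healthy liver, neither called.

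Both conjugating enzymes fell in T2D control liver. Slc27a5, the bile acid CoA ligase that activates bile acids for conjugation, had signals of 9.55, 9.04 and 9.43 in treated pools, 9.37, 9.14 and 8.92 in T2D control pools, and 10.39, 10.41 and 10.44 in healthy pools. Healthy pools lay close together and well above both T2D groups, which overlapped each other. Slc27a5 fell by 1.27 ± 0.15 (SE) in T2D control against healthy liver, with an adjusted p of 0.000596, and by 1.07 ± 0.15 (SE) in treated against healthy liver, with an adjusted p of 0.00127. These are differences of 2.41-fold and 2.10-fold, and both passed the adjusted threshold in each alternative tried. The treated difference from T2D control was 0.20 (95% interval -0.13 to 0.53).

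Baat, which joins the activated bile acid to taurine or glycine, had signals of 10.13, 10.27 and 10.27 in treated pools, 10.33, 10.09 and 9.87 in T2D control pools, and 10.53, 10.76 and 10.61 in healthy pools. Healthy pools were again highest, with no overlap. Baat fell by 0.54 ± 0.12 (SE) in T2D control against healthy liver, with an adjusted p of 0.00969, and by 0.88 after quantile normalization. In treated against healthy liver it fell by 0.41 ± 0.12 (SE), with an adjusted p of 0.0283, but this call was lost after quantile normalization (adjusted p 0.0695), median centring (0.0962), a trended robust variance (0.0599) or array weights (0.104). It was also lost without treated pool 1 (0.0876), 2 (0.0646) or 3 (0.0657) or healthy pool 8 (0.0835). Treated and T2D control pools overlapped, with a difference of 0.13 (95% interval -0.14 to 0.40).

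The receptor gene was not called in any comparison, while its target Nr0b2 was called in 1. Nr1h4 (FXR) had signals of 8.24, 8.41 and 8.33 in treated pools, 8.25, 8.12 and 8.18 in T2D control pools, and 8.38, 8.17 and 8.13 in healthy pools. All 3 groups overlapped. The differences were -0.04 for T2D control against healthy liver (95% interval -0.23 to 0.14), 0.14 for treated against T2D control (-0.05 to 0.33) and 0.10 for treated against healthy (-0.09 to 0.28), none of them called. Scaling moved them: the T2D control difference was 0.07 after median centring and -0.24 after quantile normalization (adjusted p 0.0963), and the treated difference from healthy liver was 0.22 (adjusted p 0.096) and -0.03 under the same settings.

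Nr0b2, the repressor that FXR induces, had signals of 5.26, 5.04 and 5.26 in treated pools, 5.63, 5.58 and 6.03 in T2D control pools, and 5.09, 4.56 and 4.99 in healthy pools. This was the dimmest member, with a mean signal of 5.27 over the 9 arrays. Treated pools 1 and 3 held exactly the same value. Exact ties also occurred in other genes, such as Ephx1 in treated pools 2 and 3. Some took in all 3 pools of a group, such as Abcc2 in treated liver. Others crossed groups, such as Hsd17b4 in treated pool 1, T2D control pool 4 and healthy pool 7. No member was tied over all pools of a group. The cause of the ties and their effect on the spread were not tested. T2D control pools lay above every other pool, while treated and healthy pools overlapped. Nr0b2 rose by 0.87 ± 0.16 (SE, 1.82-fold) in T2D control against healthy liver, with an adjusted p of 0.00504, and the difference was 0.71 without healthy pool 8. Against T2D control, the treated difference was -0.56 with a 95% interval of -0.93 to -0.19 and a p of 0.00834, which adjustment over all clusters took to 0.559. Treated liver was 0.31 above healthy liver (-0.06 to 0.68, adjusted p 0.16).

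Of the transporters, Slc10a1 (NTCP), the sodium-dependent uptake carrier of the basolateral membrane, had signals of 10.13, 10.06 and 10.14 in treated pools, 10.10, 9.98 and 9.83 in T2D control pools, and 10.74, 10.41 and 10.80 in healthy pools. Healthy pools lay above both T2D groups without overlap. Slc10a1 fell by 0.68 ± 0.11 (SE) in T2D control against healthy liver, with an adjusted p of 0.00278 (-1.04 after quantile normalization), and by 0.54 ± 0.11 (SE) in treated against healthy liver, with an adjusted p of 0.00758. Treated and T2D control pools overlapped, with a difference of 0.14 (95% interval -0.11 to 0.40).

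Abcb11 (BSEP), the canalicular export pump and a classic FXR target, had signals of 9.84, 9.55 and 9.85 in treated pools, 9.75, 9.75 and 9.76 in T2D control pools, and 9.70, 9.02 and 10.07 in healthy pools. Healthy pools spanned the values of both other groups, with healthy pool 8 lowest. The T2D control difference from healthy liver was 0.16 (95% interval -0.36 to 0.68). It was -0.13 without healthy pool 8, 0.39 without healthy pool 9 and -0.30 after quantile normalization, and it was called in none of these. Treated liver differed by -0.01 from T2D control (-0.53 to 0.51) and by 0.15 from healthy liver (-0.37 to 0.67), the last -0.14 without healthy pool 8, 0.38 without healthy pool 9 and -0.11 after quantile normalization.

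**Figure D2:**
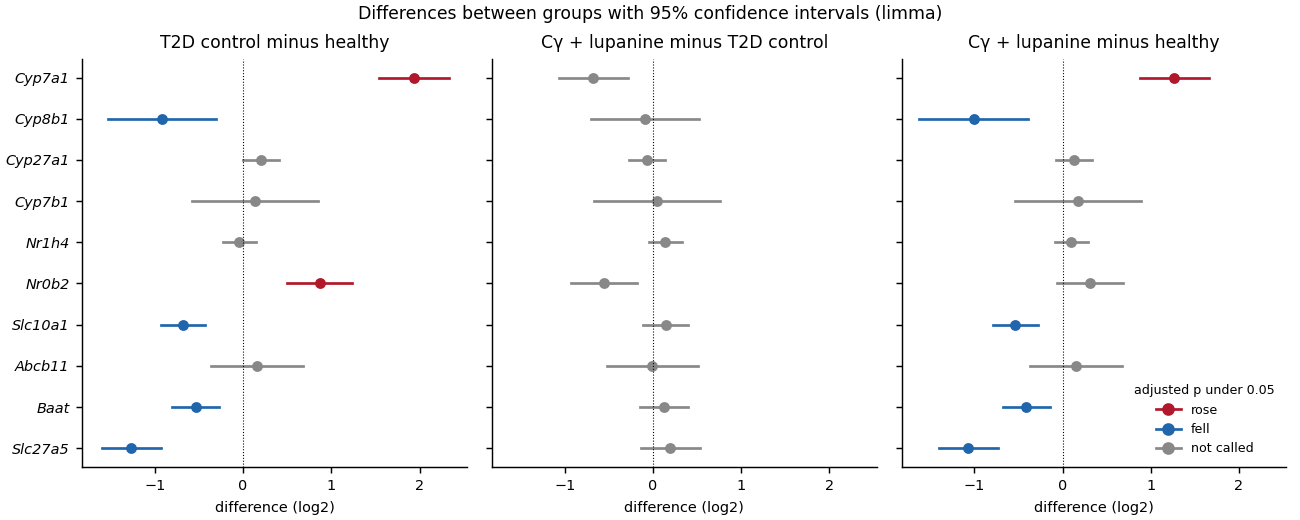
Log2 difference (x axis) of each member (rows) for T2D control minus healthy, Cγ + lupanine minus T2D control and Cγ + lupanine minus healthy, with 95% confidence intervals from limma. Red and blue mark members that rose or fell at an adjusted p under 0.05, and grey those not called. All 10 members are grey in the middle panel, where the intervals of Cyp7a1 and Nr0b2 alone lie below 0.

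Pools failed to overlap for 7 members in T2D control against healthy liver (3 higher, 4 lower), where 47.7% of clusters (15% higher, 32.7% lower) and 66.6% of the brighter genes did so. For treated against T2D control the count was 2, Cyp7a1 and Nr0b2, both lower, where 14.3% of clusters (5.27% higher, 8.99% lower) and 16.7% of the brighter genes separated. For treated against healthy it was 6 (2 higher, 4 lower), where 47.8% of clusters (13.9% higher, 33.9% lower) and 67.1% of the brighter genes did. Under the threshold in the methods, an unadjusted p under 0.05 with over 2-fold change, 2 members passed in T2D control against healthy liver (Cyp7a1 and Slc27a5, where 4.14% of clusters passed), 0 in treated against T2D control (0.244%) and 3 in treated against healthy (Cyp7a1, Cyp8b1 and Slc27a5, where 3.63% passed).

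The genes most like 3 of the members across the 9 arrays were taken from 8406 named genes with a mean signal of at least 5, by Pearson's r, as a description. All points share the arrays and the 3 groups. For Cyp7a1 they were Gstm1, Pde4b and Ppm1l, each with r = 0.99. For Cyp8b1 they were Top1mt (0.97), Cox5a (0.96) and Ripk4 (0.96). For Nr0b2 they were Atf5 (0.95), Atp1b1 (0.92) and the cluster annotated rno-mir-6319 (0.92).

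Other genes of the pathway were read from lists written by role. The counts of calls for these lists and for the cell markers stand against 12.4% of clusters that rose and 22.6% that fell in T2D control against healthy liver, and 55.7% of the brighter genes called in either direction. The list medians stand against a median of -0.10 over genes of 1 symbol, and of 0.03 over the brighter of these genes. Of the other synthesis and side chain enzymes, 5 of 16 measured genes rose and 8 fell in T2D control against healthy liver, with a median of -0.24. Fdx1, the ferredoxin that passes electrons to mitochondrial P450 enzymes such as Cyp27a1, had signals of 5.33, 5.07 and 5.33 in treated, 5.37, 5.42 and 5.41 in T2D control and 7.00, 6.79 and 6.97 in healthy pools. It fell by 1.52 in T2D control liver (adjusted p 3.84e-05). The 3-beta-hydroxysteroid dehydrogenase Hsd3b7, which follows the 7-alpha-hydroxylases, fell by 0.97 (adjusted p 0.00109). Cyp39a1, another oxysterol 7-alpha-hydroxylase, fell by 0.56 (adjusted p 0.00096), whereas Cyp2c22 rose by 0.79 (adjusted p 0.00015). Cyp2c22 carries the synonym Cyp2c70, the name of the mouse enzyme that makes muricholic acids.

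Among the receptors and regulators around FXR, 7 of 19 rose and 2 fell in T2D control liver, with a median of 0.16. The fatty acid receptor gene Ppara rose by 1.35 (adjusted p 0.000202), and the coactivator genes Ncoa1 and Ncoa2 by 0.94 (adjusted p 0.00672) and 0.64 (adjusted p 0.0192). Gpbar1, the membrane bile acid receptor, fell by 0.38 (adjusted p 0.00589), at dim signals of 3.74 to 3.92 in treated, 3.87 to 3.92 in T2D control and 4.15 to 4.35 in healthy pools. Fgf19, which carries the synonym Fgf15, fell by 0.26, but all its signals were under 3 and below the background probe mean of the healthy pools.

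Of the canalicular transport and bile lipid genes outside the members, 7 of 13 rose and 3 fell in T2D control against healthy liver, with a median of 0.41. Atp8b1, a phospholipid flippase of the canalicular membrane, rose by 1.14 (adjusted p 0.000271), and Abcg5, a subunit of the sterol exporter, by 1.11 (adjusted p 0.00257). Tmem30a, the flippase's partner subunit, fell by 0.66 (adjusted p 0.000828), and the scaffold gene Pdzk1 by 0.42 (adjusted p 0.00301). On the basolateral side 2 of 8 rose and 1 fell, with a median of -0.06. Abcc3 (MRP3), which exports bile acids to blood, rose by 1.57 (adjusted p 0.000277), with signals of 6.07, 5.67 and 6.02 in treated, 6.75, 6.79 and 6.33 in T2D control and 5.15, 4.89 and 5.12 in healthy pools. The epoxide hydrolase gene Ephx1 rose by 1.10 (adjusted p 0.000184). The uptake carrier gene Slco1b2 fell by 0.54 (adjusted p 0.00478), as Slc10a1 did. Slco2b1, another uptake carrier, differed by 0.05 (adjusted p 0.672) in T2D control against healthy liver. In treated liver it rose by 0.31 against healthy liver (adjusted p 0.0282), and its difference from T2D control was 0.26 with no overlap of pools (p 0.0177 before and 0.729 after adjustment).

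Of the bile acid detoxification genes, 2 of 9 rose and 6 fell in T2D control against healthy liver, with a median of -0.70. The sulfotransferase genes Sult2a6 and Sult2a1 fell by 2.04 (adjusted p 7.62e-05) and 1.39 (adjusted p 0.000594), and Cyp3a9 by 2.16 (adjusted p 0.000213). Sult2a1 was dim, with signals of 4.23 to 4.51 in treated, 4.12 to 4.19 in T2D control and 5.25 to 5.93 in healthy pools. Cyp2b1, an enzyme known for its induction by phenobarbital, rose by 1.78 (adjusted p 0.00902). These families have near-identical members, so probes may read more than 1 gene. In a list of classic FXR targets, which shares Nr0b2, Abcb11, Baat and Slc27a5 with the members, 4 of 15 rose and 3 fell, with a median of -0.07. Pltp, the phospholipid transfer protein gene, rose by 1.69 (adjusted p 0.000674), while Slc27a5 and Baat fell.

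In treated against T2D control liver, 0 genes of these 6 lists were called at an adjusted p under 0.05. At an unadjusted p under 0.05, which 5.13% of clusters and 7.28% of the brighter genes had, 1 synthesis gene was higher and 1 lower, 1 regulator was higher and 1 lower, 2 basolateral genes were higher and 1 lower, 1 detoxification gene was higher and 3 were lower, and 0 canalicular genes passed. Of the FXR targets, Nr0b2 alone did. Cyp2b1 had signals of 8.93, 8.56 and 9.60 in treated pools, against 10.24, 11.50 and 11.30 in T2D control pools, a difference of -1.98 with an adjusted p of 0.189. Abcc3 differed by -0.70 (adjusted p 0.258), with treated pools below all T2D control pools. In treated against healthy liver, rises and falls numbered 2 and 8 among synthesis genes, 7 and 2 among regulators, 3 and 1 among basolateral, 5 and 3 among canalicular, 0 and 6 among detoxification genes and 1 and 3 among FXR targets. In that comparison 11.1% of clusters rose and 23.1% fell, and 54.1% of the brighter genes were called in either direction.

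**Figure D3:**
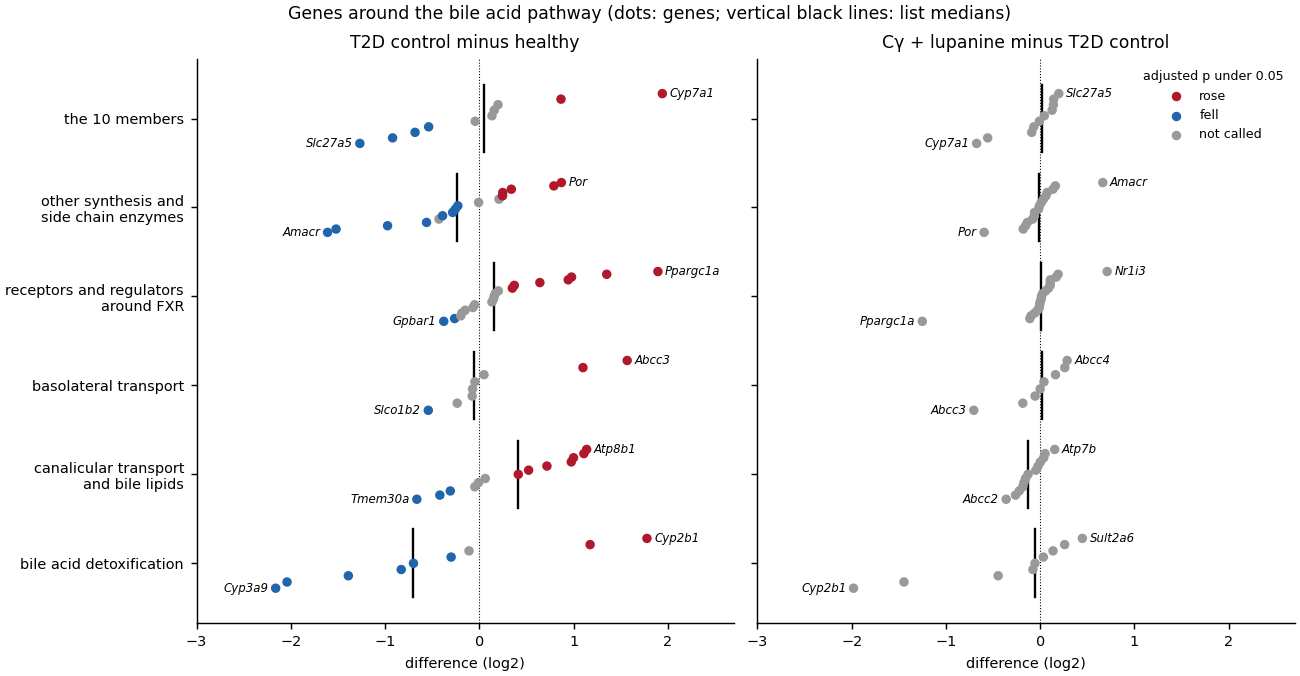
Log2 difference (x axis) of each gene of the 10 members and 5 lists around them (rows), for T2D control minus healthy and Cγ + lupanine minus T2D control, with black lines at list medians. Points are red or blue where the gene rose or fell at an adjusted p under 0.05, and the highest and lowest gene of each row is named because of its value. The canalicular list has its median at 0.41 and the detoxification list at -0.70 on the left, and no point is called on the right.

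In bulk RNA, fewer cells of a type and less RNA per cell cannot be told apart. The hepatocyte defining gene Alb had signals of 12.55 to 12.70 in treated, 12.67 to 12.68 in T2D control and 12.69 to 12.77 in healthy pools. The summed linear signal of 15 hepatocyte markers, on a log2 scale, was 14.91 to 14.96 in treated, 14.91 to 15.13 in T2D control and 14.95 to 15.06 in healthy pools, and 4 of the 15 rose and 4 fell in T2D control against healthy liver. Ttr fell by 0.49 (adjusted p 0.000442), Apoh by 0.59 (adjusted p 0.000314), Fgb by 0.35 and G6pc1 by 1.51, whereas Tat rose by 1.02 (adjusted p 0.0206), Apob by 0.90 (adjusted p 0.017), Cps1 by 0.52 and Apoa1 by 0.33. Macrophage, sinusoidal endothelial and stellate cell markers mostly rose in T2D control against healthy liver. Of 12 macrophage markers 9 rose and 0 fell, with sums of 12.03 to 12.26 in treated, 12.01 to 12.29 in T2D control and 10.80 to 11.04 in healthy pools, led by Gpnmb (4.80 higher in T2D control liver). The other way, 2 macrophage markers had a lower mean, Clec4f (-0.24) and Vsig4 (-0.40), neither called. Clec4f fell by 0.57 in treated against healthy liver (adjusted p 0.00728). All 10 sinusoidal endothelial markers and 9 of 10 stellate cell markers rose. Of 9 cholangiocyte markers 2 rose and 1 fell, with sums of 8.74 to 9.03 in treated, 8.71 to 9.29 in T2D control and 7.44 to 7.57 in healthy pools. Those sums rested on Spp1 and Sctr, which rose by 3.95 and 1.99, while Krt7 fell by 0.27 and the other 6 were not called. The defining keratin gene Krt19 lay between 4.37 and 4.46 in treated, 4.46 and 4.56 in T2D control and 4.44 and 4.50 in healthy pools. Of 7 markers of ileal enterocytes 1 rose and 2 fell. Of 7 T, B and plasma cell markers 2 rose (Cd4 by 1.46 and Cd8a by 0.58) and 0 fell. The defining T cell gene Cd3e (3.50 to 3.64 over all pools) and B cell gene Ms4a1 (2.16 to 2.21) were dim and not called. Of 4 erythroid markers 1 rose and 1 fell. The part of these cells in the member differences was not tested.

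**Figure D4:**
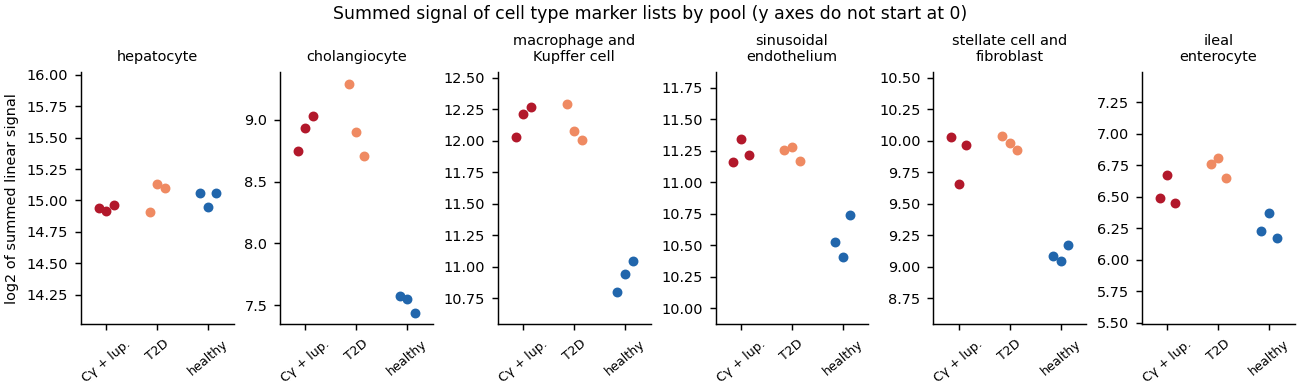
Log2 of the summed linear signal of 6 marker lists (y axes, which do not start at 0) by pool in Cγ + lupanine treated T2D, T2D control and healthy liver (x axis). Each point is 1 pool. Hepatocyte sums of the 3 groups overlap between 14.91 and 15.13, while macrophage sums of both T2D groups lie above 12 and those of healthy pools between 10.80 and 11.04.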

How the data were processed

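Total liver RNA was hybridised to Clariom D rat arrays. The authors summarised the scans by RMA in Transcriptome Analysis Console 4.0.2, which gave the deposited log2 values, 1 signal per transcript cluster. They were used without further normalisation. The genome build and annotation behind the clusters are not given in the sources used here. Of 70580 entries, 1738 control probe sets were set aside, which left 68842 clusters, and 0 columns were left unused. Symbols come from GEO's platform annotation, updated by gene ID for 1 symbol. 23446 clusters carry 1 symbol, over 22093 symbols, and the brightest cluster stood for a gene. Groups came from the sample labels. A linear model with moderated variances (limma 3.58.1 under R 4.3.3, with 3 pools per group and 6 residual degrees of freedom) gave 3 comparisons, with p-values adjusted by Benjamini-Hochberg over all clusters. The script was checked on simulated data. Precision is limited by the number of arrays.

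All members were named. Of each pathway list up to 4 genes, and of each marker list up to 2, with the smallest p over the 3 groups were named. Named besides were defining markers, Fgf19, all called hepatocyte and cholangiocyte markers, and macrophage markers with a lower mean in T2D control liver. Abcc2 and Hsd17b4 were named as examples of exact ties. Members and lists were chosen with earlier results of these data known. Promoters are RefSeq sequences of GRCr8. Alternatives were group medians, only the 2 groups compared, quantile normalisation, median centring, a mean signal of at least 5, a trended robust variance, array weights, 1-symbol clusters, the mean of a gene's clusters, the threshold in the methods, and each pool left out in turn.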

Additional observations from a re-analysis of the deposited data

How the results depend on the processing

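The counts of members called were 6 in T2D control against healthy liver, 0 in treated against T2D control and 5 in treated against healthy. Under the threshold in the methods they were 2, 0 and 3, and with array weights 6, 1 and 4. Leaving out 1 pool gave 5 to 6, 0 to 0, and 3 to 5, with 3 without treated pool 2, treated pool 3 or healthy pool 8, where Cyp8b1 and Baat lost their calls. No paired analysis was possible because the pools are numbered 1 to 9 with no number shared between groups. Over all clusters, 24083 were called in T2D control against healthy liver, 9484 with a mean signal of at least 5, 10563 with 1 symbol only, 2848 under the threshold in the methods, and 15654 to 31378 with 1 pool left out. For treated against T2D control, 46 were called, 6 with only the 2 groups compared, 30 after median centring, 1 with a mean signal of at least 5, 606 with array weights, 3 with 1 symbol only, 168 under the threshold in the methods, and 0 to 170 with 1 pool left out. For treated against healthy, 23602 were called, 8677 with a mean signal of at least 5, 10644 with 1 symbol only, 2496 under the threshold in the methods, and 14782 to 31361 with 1 pool left out. Fewer clusters were tested in the filtered settings, and the cause of the other changes was not tested. Scaling moved the split of calls: in T2D control against healthy liver 8556 were higher and 15527 lower as deposited, 9432 and 11256 after quantile normalisation, and 11275 and 8349 after median centring (median over all clusters -0.12 as deposited and -0.00047 after centring). In treated against healthy the splits were 7673 and 15929, 9089 and 10494, and 10518 and 7886. Group medians give values with no test, so no count. Signals near background limit Gpbar1 and Fgf19. Dim signals limit Sult2a1 and the member Nr0b2 (4.56 to 5.09 in healthy pools), and 3 pools a group limit all tests.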
